A study of Mus musculus with 6 samples.

Results

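The genes described here are the serotonin transporter Slc6a4 and 7 serotonin receptor genes, Htr1b, Htr1d, Htr1f, Htr2a, Htr3a, Htr3b and Htr7, 8 of the 36793 gene identifiers in the deposited table. They were picked by symbol with their knockout and wild-type values already known. The differences between the groups are thus a description for these 8 genes, and nothing is read from tests of them. The RNA came from lumbar dorsal root ganglia of 3 mice labelled NMDA-R Knockout (mice 4, 5 and 6) and 3 labelled Wildtype (mice 1, 2 and 3). By the series title, the knockouts lack GluN1, an obligatory NMDA receptor subunit, in Schwann cells, which ensheathe peripheral axons. For neither group do the sources used here give the Cre driver, strain, sex, age or any treatment. The labels call the cell type Schwann cells, but the tissue was whole ganglion. Markers of sensory neurons summed to 12875 to 15004 CPM (counts scaled by library size) in knockout libraries and 11100 to 14522 CPM in wild-type libraries, and Schwann cell markers to 6566 to 6677 CPM in knockout and 5122 to 5826 CPM in wild type. Markers of satellite glia summed to 3123, 2823 and 2806 CPM in knockout and 2548, 2556 and 2668 CPM in wild type. Neither glial sum overlapped between the groups, with 8 of 8 Schwann cell and 4 of 4 satellite glia markers positive and 3 of each list separated upward (10.1% of all genes). Their part in the values below was not tested.

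Serotonin released by platelets, mast cells and descending brainstem fibres reaches sensory neurons and can excite or inhibit them, depending on the receptor. Htr3a and Htr3b encode subunits of a cation channel opened by serotonin, whereas the other receptors act through G proteins: those of the Htr1 family lower cyclic AMP, Htr2a activates phospholipase C and Htr7 raises cyclic AMP. Slc6a4 carries serotonin back into cells. It is the target of the selective serotonin reuptake inhibitors and is best known from raphe neurons and platelets.

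The libraries held 28526704 to 36249163 expected counts each. Libraries knockout 5 and 6 differed by little more than sampling noise. Their mean chi-square was 1.15 over 10258 genes, with 0 genes differing, against 13.3 to 104 in the other 14 pairs. Knockouts 5 and 6 were therefore counted as 1 sample, which gives n = 2 for knockout and n = 3 for wild type. Libraries also differed in GC tilt, the Spearman correlation across 15155 genes between GC content and the log ratio to the mean of all libraries. It was 0.40 in knockout 5, 0.40 in knockout 6 and 0.39 in wild type 2, and -0.24 in knockout 4, -0.51 in wild type 1 and -0.41 in wild type 3. Ratios within each of these 2 classes are given beside the pooled values. Grin1, the GluN1 gene, was at 99.7 ± 24.8 CPM in knockout (SD, n = 2) and 86.3 ± 25.3 CPM in wild type (SD, n = 3). Neurons of the ganglion transcribe it too, so its level is no check of the genotype labels.

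The promoters of Slc6a4 and Htr1b are shown because these members had the highest ratios of knockout to wild type. Each run is the 250 bases before the RefSeq transcript start, 5′ to 3′ on the gene's strand, on GRCm38.p6. Capitals mark TGACG, the core of the cyclic AMP response element that factors of the CREB and ATF family recognise.
Slc6a4, chr11:76998347-76998596, plus strand: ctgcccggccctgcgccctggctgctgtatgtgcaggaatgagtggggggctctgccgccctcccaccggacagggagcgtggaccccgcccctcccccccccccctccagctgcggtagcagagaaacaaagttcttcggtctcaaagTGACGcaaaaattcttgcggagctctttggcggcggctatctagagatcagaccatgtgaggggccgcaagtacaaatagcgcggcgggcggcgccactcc
Htr1b, chr9:81633833-81634082, minus strand: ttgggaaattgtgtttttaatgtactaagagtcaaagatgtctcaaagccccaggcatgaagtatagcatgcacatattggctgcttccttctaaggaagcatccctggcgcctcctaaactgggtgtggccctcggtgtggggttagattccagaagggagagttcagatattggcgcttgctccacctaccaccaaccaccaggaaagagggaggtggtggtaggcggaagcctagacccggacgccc
The Slc6a4 promoter held TGACG once, starting 101 bases before the transcript start, and 64.8% of its bases were G or C. The Htr1b run held none, and 52.4% of its bases were G or C. Of the members with a promoter in the reference, Slc6a4 and Htr7 held TGACG in the window from 250 bases before to 50 after the start. None of them held TGACGTCA, the full element, or TGANTCA, the AP-1 motif. Searched on both strands, TGACG was present in 20.9% of 32544 promoters, TGACGTCA, which contains it, in 1.8% and TGANTCA in 7.79%. These matches are letters only and say nothing of a factor's binding.

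The transporter had the widest gap between the groups. Slc6a4 (chromosome 11, 76998603 to 77032340, plus strand, GRCm38) had 128, 159 and 168 expected counts in knockout libraries 4, 5 and 6, against 20, 5 and 13 in wild-type libraries 1, 2 and 3. In TPM, transcript abundance scaled by gene length and library size, it was at 3.45, 3.81 and 4.38 in the knockouts and at 0.49, 0.13 and 0.37 in the wild types. All 3 knockout libraries lay above all 3 wild types, and the lowest knockout count was over 6 times the highest wild-type count. The means were 4.67 ± 0.392 CPM in knockout (SD, n = 2) and 0.402 ± 0.225 CPM in wild type (SD, n = 3), an 11.5-fold difference and a log2 fold change of 3.52 ± 0.41 (SE, from the edgeR quasi-likelihood fit). Within the class of low GC tilt, knockout 4 was at 8.36 times the mean of wild types 1 and 3. In the class of high GC tilt, knockouts 5 and 6 together were at 31.2 times wild type 2, whose 5 counts make that ratio imprecise. In whole ganglion, more cells with the transcript and more transcript per cell cannot be told apart.

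**Figure D1:**
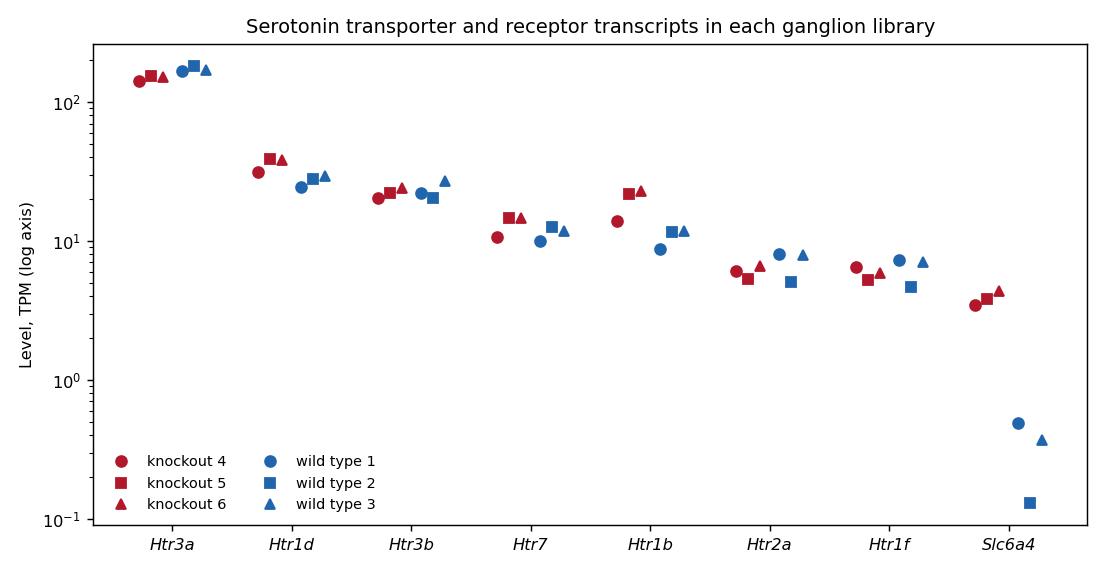
TPM (log axis) of the 8 genes in each of the 6 libraries, with knockout libraries in red left of wild-type libraries in blue, 1 point per library. Slc6a4 lies at 3.45 to 4.38 TPM in the knockouts and 0.13 to 0.49 TPM in the wild types, while the receptors differ far less.

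Other cells that carry Slc6a4 were looked at through their markers. The 8 platelet and megakaryocyte markers summed to 29.6, 12.3 and 12.7 CPM in knockouts 4, 5 and 6 and to 11.2, 11.7 and 9.74 CPM in wild types 1, 2 and 3. All 3 knockout sums lay above the wild types, knockouts 5 and 6 only slightly, and this rested on Itga2b, the marker with the highest level. Without it the sums were 20.8, 7.29 and 6.82 CPM in the knockouts and 6.55, 7.93 and 6.18 CPM in the wild types, and the groups overlapped. Either sum was highest in knockout 4. There the platelet chemokine gene Ppbp had 238 counts, against 34 and 21 in knockouts 5 and 6 and 34, 21 and 40 in the wild types. Slc6a4 was at 4.36, 4.56 and 5.26 CPM in knockouts 4, 5 and 6. None of the 8 markers was at 0 in every library, while the platelet collagen receptor gene Gp6 had 10, 1 and 0 counts in the knockouts and 2, 0 and 0 in the wild types. Among the 4 platelet markers with enough counts to be fitted, all 4 were positive (50.2% of all genes), with log2 fold changes up to 2.09. Of these 4, 2 had an unadjusted p under 0.05 (edgeR, 9.14% of all genes). Itga2b, an integrin subunit of megakaryocytes, was separated upward (10.1% of all genes). It had 260, 175 and 189 counts in knockout and 157, 120 and 104 in wild type (edgeR adjusted p = 0.408). Itgb3, listed as a partner of the transporter and not among the 8, also marks platelets and was positive too, at 0.64 ± 0.12 (SE). It was at 34.6, 35.3 and 32.8 CPM in the knockouts and 23.3, 19.7 and 23.4 CPM in the wild types. Its level was thus above the platelet sum in every library and did not share the peak in knockout 4. The part of platelets in the Slc6a4 level was not tested beyond these values.

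Mast cell markers were mostly on the low side in the knockouts. Without Kit, which sensory neurons also express, the other 7 mast cell markers summed to 10.6, 6.05 and 5.79 CPM in the knockouts and 12.4, 10.4 and 15.1 CPM in the wild types, and the groups overlapped. Of 7 fitted markers, Kit included, 2 were positive and 5 negative, with a median log2 fold change of -0.72. The protease genes Tpsb2, Mcpt4 and Cma1 were each lower in every knockout library than in any wild type (14.1% of all genes), and 2 of the 7 had an unadjusted p under 0.05 (edgeR, 9.14% of all genes). Hdc, which makes histamine, had 118, 73 and 68 counts in the knockouts and 98, 105 and 63 in the wild types, with the highest level in knockout 4. Markers of serotonergic neurons and spinal cord, without the water channel gene Aqp4, which satellite glia also use, summed to 1.84, 1.84 and 2.44 CPM in the knockouts and 2.96, 2.58 and 1.71 CPM in the wild types. Fev, the transcription factor that defines serotonergic neurons, had 2, 0 and 3 counts in the knockouts and 1, 0 and 0 in the wild types.

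**Figure D2:**
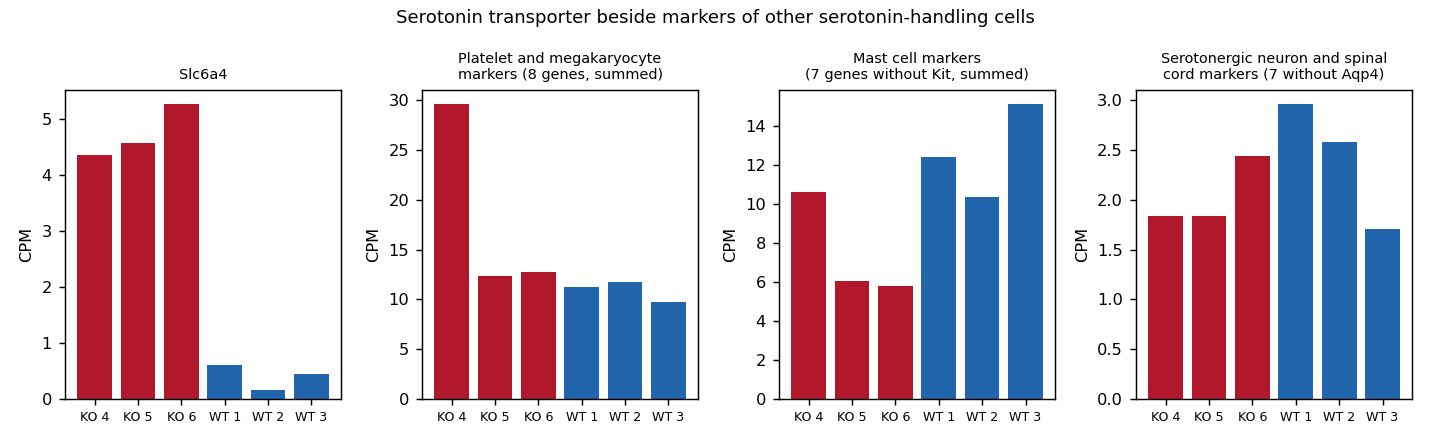
Bars give CPM in each library, knockouts in red left of wild types in blue, for Slc6a4 and for the summed markers of platelets and megakaryocytes, of mast cells without Kit, and of serotonergic neurons and spinal cord without Aqp4. Slc6a4 is high in all 3 knockouts, and the platelet sum is highest in knockout 4, at 29.6 CPM.

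The genes on either side of Slc6a4 differed little. Blmh, a cysteine protease gene 11223 bases before it, had a log2 fold change of 0.04 with a standard error of 0.09, and Nsrp1, a splicing regulator gene 11951 bases after it, had 0.06 with 0.11 (edgeR adjusted p = 0.895 for Blmh and 0.859 for Nsrp1). The fitted neighbours of the other members lay between -0.40 for Zbtb16, beside Htr3a, and 0.34 for Mei4, beside Htr1b, with the smallest adjusted p at 0.559 for Hnrnpr, beside Htr1d (edgeR). RSEM's mean transcript length for Slc6a4 was 2725 bases in 5 of the 6 libraries and 2714 in knockout 5, out of 4 listed transcripts. The counts were thus assigned to transcripts of nearly the same mean length in both groups, though 5 to 20 counts in wild type leave that estimate weak.

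The receptors of the Htr1 family that couple to inhibitory G proteins, targets of the triptans and related migraine drugs, were not alike. Htr1b (chromosome 9, 81628291 to 81633828, minus strand) was at 7.89, 11.9 and 12.4 CPM in the knockouts and at 4.87, 6.55 and 6.46 CPM in the wild types. Every knockout library lay above every wild type, although knockout 4 was nearer to wild type 2 than to knockouts 5 and 6. Its mean was 10.1 ± 3.02 CPM in knockout (SD, n = 2) and 6.00 ± 0.958 CPM in wild type (SD, n = 3), a log2 fold change of 0.76 with a standard error of 0.23. Within classes of GC tilt the ratio of knockout to wild type was 1.39 in the low class and 1.85 in the high class.

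Htr1d (chromosome 4, 136423524 to 136444398, plus strand) was at 39.5, 46.5 and 46.7 CPM in the knockouts and at 29.8, 35.9 and 36.4 CPM in the wild types, and the groups again did not overlap. The log2 fold change was 0.34 ± 0.14 (SE), and the ratios within classes were 1.19 in the low and 1.3 in the high class. Htr1f (chromosome 16, 64924729 to 65105854, minus strand) had 223, 203 and 207 counts in the knockouts and 277, 171 and 229 in the wild types. Its groups overlapped at a log2 fold change of -0.07 ± 0.22 (SE), and the sign turned in 5 of 15 alternative settings. The TPM ratio of Htr1d to Htr1b was 2.28, 1.78 and 1.67 in the knockouts and 2.78, 2.42 and 2.49 in the wild types, since Htr1b differed more than Htr1d did.

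The channel subunits lay on the other side. Htr3a (chromosome 9, 48899213 to 48911099, minus strand), the subunit that forms channels on its own, was at 135, 140 and 137 CPM in the knockouts and at 155, 172 and 156 CPM in the wild types. It was the 1 member whose knockout libraries all lay below the wild types, at a log2 fold change of -0.23 with a standard error of 0.10. The ratios within classes were 0.868 in the low and 0.81 in the high class, so the size was alike in both. Htr3b (chromosome 9, 48935008 to 48964990, minus strand), which joins channels only together with Htr3a, lies 23908 bases from it. It was at 22.8, 23.5 and 25.3 CPM in the knockouts and at 24.1, 22.2 and 28.8 CPM in the wild types. These groups overlapped at a log2 fold change of -0.08 ± 0.14 (SE), and the sign turned without wild type 3 (0.0292). As a share of the summed TPM of both subunits, Htr3b made up 12.7, 12.6 and 13.7% in the knockouts and 11.8, 10.01 and 13.7% in the wild types. The means were 12.9 ± 0.314% in knockout (SD, n = 2) and 11.8 ± 1.84% in wild type (SD, n = 3), and the libraries of the groups overlapped.

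The excitatory G protein-coupled members overlapped between the groups. Htr2a (chromosome 14, 74640840 to 74709494, plus strand) was at 8.34, 7.001 and 8.60 CPM in the knockouts and at 10.9, 6.92 and 10.6 CPM in the wild types. Its log2 fold change was -0.23 ± 0.21 (SE), but the ratio of knockout to wild type was 0.777 in the low class of GC tilt and 1.12 in the high class. Htr7 (chromosome 19, 35958734 to 36057507, minus strand) was at 14.9, 19.5 and 19.9 CPM in the knockouts and at 13.4, 17.3 and 16.0 CPM in the wild types, at a log2 fold change of 0.16 ± 0.17 (SE). The within-class ratios of Htr7 were 1.01 in the low and 1.14 in the high class, and its sign turned without knockouts 5 and 6 (-0.0611).

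Htr1f and Htr2a are known in the mouse from itch neurons that make the peptide Nppb. Nppb itself was at 5.27, 4.71 and 4.01 CPM in the knockouts and at 10.9, 7.30 and 10.04 CPM in the wild types, a log2 fold change of -0.97 with a standard error of 0.21 (edgeR adjusted p = 0.279). Nts, the neurotensin gene and another marker of these neurons, was at 48.8, 23.8 and 21.8 CPM in the knockouts and at 7.78, 6.70 and 10.9 CPM in the wild types. Its log2 fold change was 2.08 ± 0.34 (SE; edgeR adjusted p = 0.2), the widest of the 6 markers and opposite to that of Nppb. The other 5 markers were negative, and the median of the 6 was -0.42, against 0.001 over all genes tested. Of the 6 markers 4 had an unadjusted p under 0.05 (edgeR, 9.14% of all genes). Nppb and 3 others did not overlap in the lower direction (14.1% of all genes) and Nts in the higher (10.1%). Htr1f and Htr2a overlapped.

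**Figure D3:**
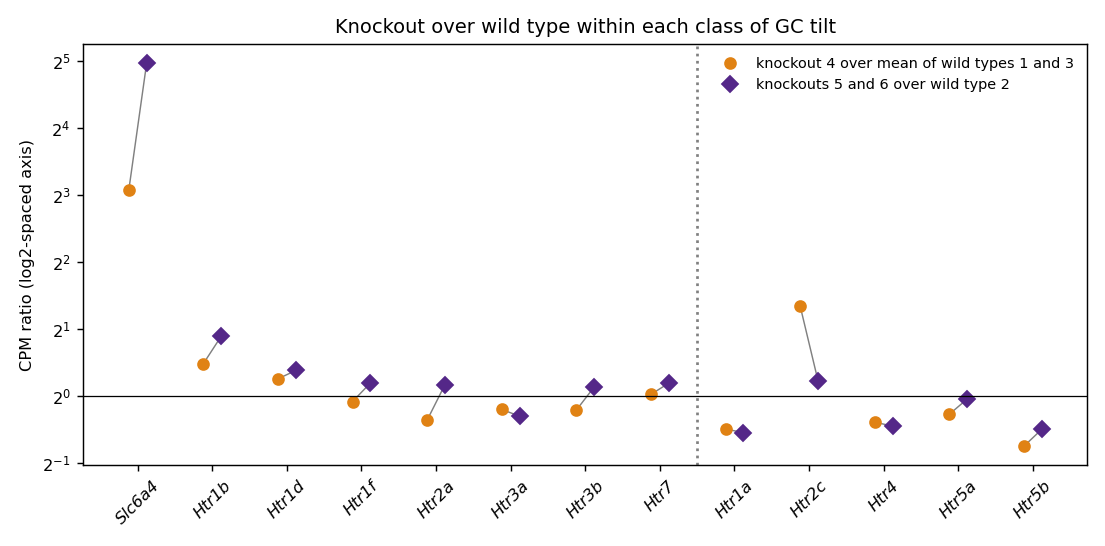
Ratio of CPM, knockout over wild type (log2-spaced axis), for the 8 genes and, right of the dotted line, 5 other receptors. Orange circles compare knockout 4 with wild types 1 and 3, and purple diamonds knockouts 5 and 6 with wild type 2. Htr1f, Htr2a and Htr3b lie on opposite sides of 1 in the classes, while Slc6a4, Htr1b, Htr1d and Htr3a keep their side.

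All 8 members passed the filter on low counts. By the edgeR quasi-likelihood test adjusted over 16809 genes, 0 of the 8 passed 0.05, where 0.0952% of all genes did (0.0595% higher and 0.0357% lower in knockout). At an unadjusted p under 0.05 the count was 3 of 8 (9.14% of all genes). Slc6a4 was the 1 member called by DESeq2 (1.52% of genes), by limma on log2(TPM + 1) (0.107%) and with the 6 libraries counted separately (0.871%), with no filter on low counts (0.323%), after GC correction (0.199%) and with the class of GC tilt as a term (2.84%). With limma on log2(TPM + 0.1) 0 were called (0.0714%), and likewise with DESeq2's size factors in edgeR (0.101%). The count was also 0 without wild type 1 (0.085%), 2 (0.0484%) or 3 (0.0602%), and without knockout 4 (0.0407%), 5 (0.0951%), 6 (0.0891%) or both 5 and 6 (0.0755%). Over the 6 libraries 3 members were separated upward and 1 downward, where 10.1% of genes were separated upward and 14.1% downward, 24.2% in all. The members had 4 positive and 4 negative values with a median log2 fold change of 0.05, while 50.2% of all genes were positive. The members were chosen on this contrast, so nothing is read from these counts.

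Set in order by TPM, the receptor transcripts kept much of their ranking. In knockout the order of the members was Htr3a at 147 ± 7.93, Htr1d at 35.0 ± 4.88, Htr3b at 21.8 ± 1.78, Htr1b at 18.1 ± 5.98, Htr7 at 12.7 ± 2.84, Htr1f at 6.06 ± 0.689, Htr2a at 5.99 ± 0.0778 and Slc6a4 at 3.77 ± 0.456 TPM (SD, n = 2). In wild type it was Htr3a at 173 ± 8.08, Htr1d at 27.3 ± 2.59, Htr3b at 23.1 ± 3.42, Htr7 at 11.5 ± 1.33, Htr1b at 10.7 ± 1.68, Htr2a at 7.06 ± 1.70, Htr1f at 6.36 ± 1.44 and Slc6a4 at 0.33 ± 0.183 TPM (SD, n = 3). Htr1b stood above Htr7 in knockout and below it in wild type. Across libraries the ranges of Htr1b and Htr7 overlapped in both groups, as did those of Htr2a and Htr1f. Those of Htr3b and Htr1b overlapped in the knockouts, and those of Htr1d and Htr3b in the wild types. Within single libraries, Htr1b was above Htr7 in every knockout and below it in every wild type. The gap was small in wild type 3, at 11.77 TPM for Htr1b and 11.89 TPM for Htr7. Htr3b was likewise above Htr1b in every knockout, and Htr1d above Htr3b in every wild type. Lengths bear on this order: the deposited table gives Htr1b 1 transcript of 1273 bases and Htr2a 1 of 2971 bases, where the longest GENCODE vM21 transcripts have 4724 and 5606 bases.

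Htr3a made up most of the receptor RNA. Of the summed TPM of the 7 member receptors it supplied 61.3, 58.8 and 57.5% in the knockouts and 67.4, 68.9 and 64.1% in the wild types. Htr1b, Htr1d and Htr1f together supplied 22.5, 25.2 and 25.3% in the knockouts and 16.4, 16.8 and 18.2% in the wild types. Neither share overlapped between the groups, but both are parts of the same total, so the shares are not independent. The sum itself did overlap, at 231, 262 and 263 TPM in the knockouts and 248, 264 and 265 TPM in the wild types. These 7 genes held 93.9 to 94.8% of the summed TPM of all 14 serotonin receptor genes in the knockouts and 92.2 to 93.1% in the wild types.

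**Figure D4:**
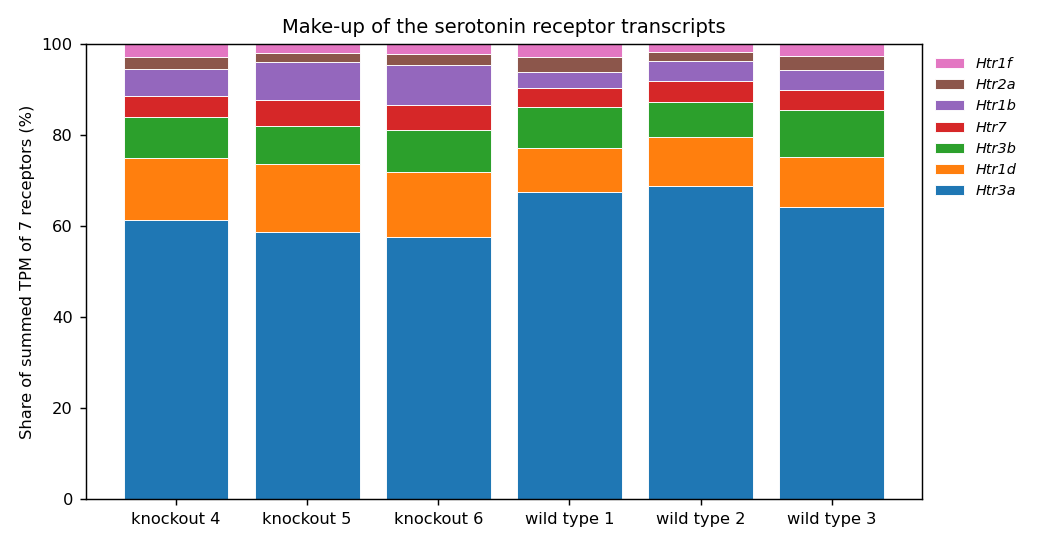
Stacked bars give the share (%) of each of the 7 member receptors in their summed TPM, 1 bar per library, knockouts left of wild types. The Htr3a share is 57.5 to 61.3% in the knockouts and 64.1 to 68.9% in the wild types.

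The other 7 receptor genes are not members, but they too were listed with earlier results of these data known, so their values are a description. Of the 5 with enough counts to be fitted, 1 was positive and 4 negative, with a median log2 fold change of -0.47, and 0 passed edgeR adjusted over all genes, while 3 had an unadjusted p under 0.05 (9.14% of all genes) and 4 were separated downward (14.1% of all genes). DESeq2 and limma called 0 of them too. Htr1a, an inhibitory receptor best known as an autoreceptor of raphe neurons, was at 7.69, 8.64 and 8.23 CPM in the knockouts and at 10.2, 12.4 and 11.5 CPM in the wild types. The groups did not overlap, the log2 fold change was -0.49 ± 0.14 (SE; edgeR adjusted p = 0.387), and the ratios within classes were 0.71 in the low and 0.684 in the high class.

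Htr5b, a receptor gene that humans have lost as a functional gene, had 83, 126 and 79 counts in the knockouts and 133, 138 and 162 in the wild types (log2 fold change -0.64, standard error 0.21; edgeR adjusted p = 0.449). Htr4, which raises cyclic AMP, had 355, 342 and 296 counts in the knockouts and 602, 416 and 401 in the wild types (log2 fold change -0.47, standard error 0.19; edgeR adjusted p = 0.531). Both were lower in every knockout library than in any wild type by CPM. Htr5a was at -0.19 and Htr2c at 0.84 with a standard error of 0.45, from 14, 11 and 16 counts in the knockouts and 8, 11 and 4 in the wild types (edgeR adjusted p = 0.707 for Htr5a and 0.61 for Htr2c). Htr6 had 7, 15 and 12 counts in the knockouts and 4, 5 and 8 in the wild types, and Htr2b at most 10 in any library, too few to be fitted.

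Genes that make, store and break down serotonin did not pass. Of 13 fitted, 6 were positive and 7 negative, with a median log2 fold change of -0.006, and 0 had an unadjusted p under 0.05 (edgeR). Tph1, the tryptophan hydroxylase of peripheral cells, had 5, 6 and 13 counts in the knockouts and 2, 2 and 3 in the wild types. Tph2, the neuronal form, had 46, 56 and 66 counts in the knockouts and 81, 59 and 42 in the wild types. The members with the smallest p were Qdpr, which recycles the hydroxylase cofactor, at -0.23, Slc18a1, a vesicular monoamine transporter, at 0.36, Maob, a monoamine oxidase, at -0.50, and Pts, of cofactor synthesis, at -0.28 (edgeR adjusted p = 0.573 to 0.574).

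Among other carriers that take up serotonin, Slc29a4, the plasma membrane monoamine transporter, was at 30.9, 52.0 and 51.7 CPM in the knockouts and 15.7, 34.1 and 27.4 CPM in the wild types. Its groups overlapped, at a log2 fold change of 0.69 ± 0.35 (SE; edgeR adjusted p = 0.597). Within classes of GC tilt, however, it was at 1.43 times wild type in the low class and 1.52 times in the high class. Slc22a3, the organic cation transporter of extraneuronal uptake, was at 0.42 with a standard error of 0.21 (edgeR adjusted p = 0.587). Of 4 carriers 3 were fitted and 0 passed. Of 6 transcription factors of serotonergic neurons 2 were fitted and 0 passed, with Lmx1b at 0.63 and a standard error of 0.33 (edgeR adjusted p = 0.608).

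Of 10 partners of the transporter and receptors, 5 were positive and 5 negative and 0 passed in edgeR. An unadjusted p under 0.05 was found for 2 (9.14% of all genes). Over the 6 libraries 2 were separated upward (10.1% of all genes) and 1 downward (14.1% of all genes). Itgb3, an integrin subunit that interacts with the serotonin transporter and also marks platelets, was at 34.6, 35.3 and 32.8 CPM in the knockouts and 23.3, 19.7 and 23.4 CPM in the wild types. Its log2 fold change was 0.64 ± 0.12 (SE; edgeR adjusted p = 0.245), with all knockouts above all wild types. Itgb3 was called with the 6 libraries counted separately, by DESeq2 and with the class of GC tilt as a term. Rgs4, which shortens signals of inhibitory and phospholipase C-coupled G proteins, was at -0.49 with a standard error of 0.14 (edgeR adjusted p = 0.372), with all knockouts below all wild types. The third by p was Arrb1, an arrestin that uncouples receptors, at 0.32 (edgeR adjusted p = 0.578). Of 15 G proteins and effectors 9 were positive and 6 negative, between -0.42 and 0.19, and 0 passed or had an unadjusted p under 0.05. Gnaq was at -0.23 and Plcb1 at 0.19 (edgeR adjusted p = 0.625 for Gnaq and 0.672 for Plcb1).

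**Figure D5:**
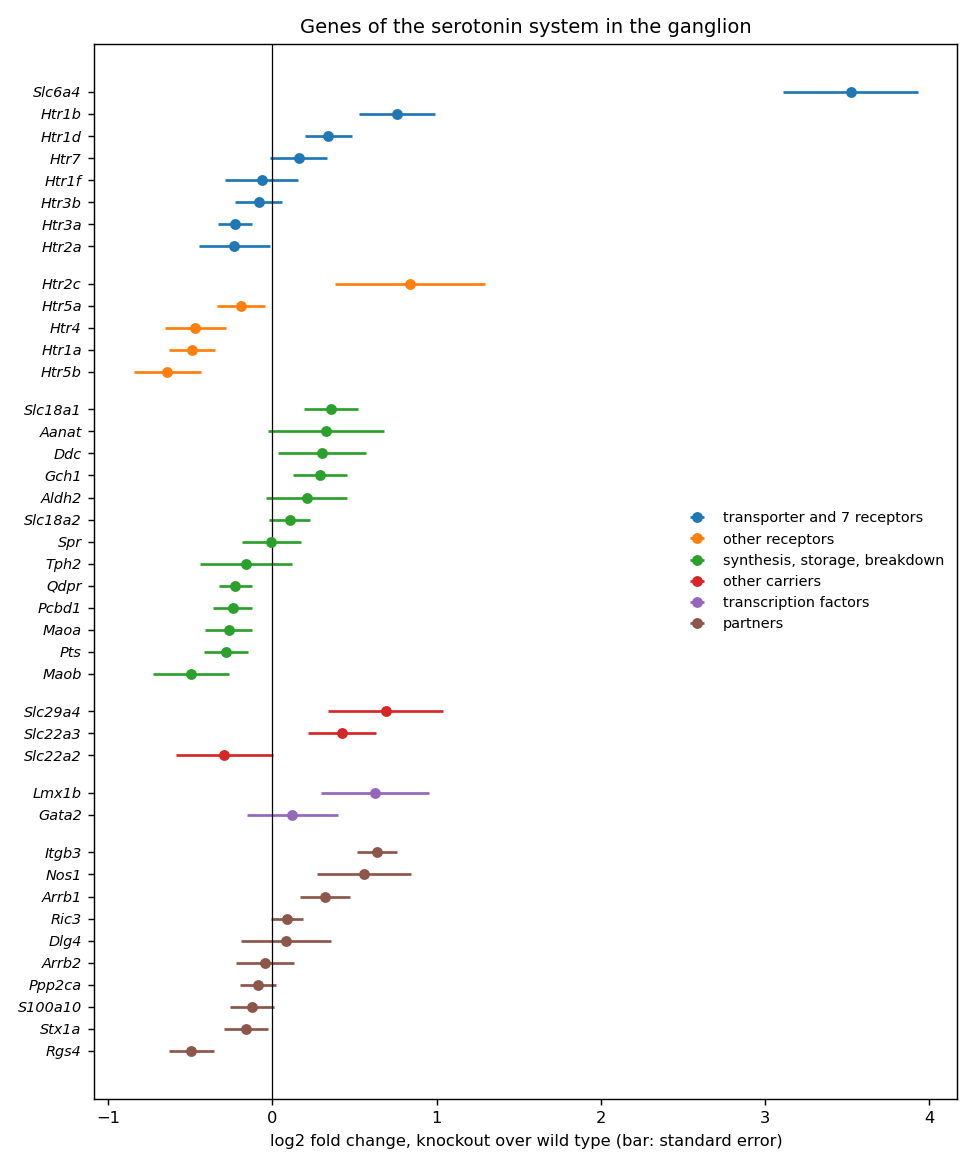
Log2 fold change, knockout over wild type, with its standard error as a bar, for fitted genes of the serotonin system grouped by role. Slc6a4 stands at 3.52, and the other genes lie between -0.64 (Htr5b) and 0.84 (Htr2c).

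For members whose groups did not overlap, the genes most like them were found by Pearson's r of log2(CPM + 0.1) over the 6 libraries, among 13404 protein-coding genes. Slc6a4 was followed by Arid3b with r = 0.996, Enpp1 with 0.995 and Lmo7 with 0.994. The measure ignores size, since the log2 fold changes were 0.14 for Arid3b, 0.35 for Enpp1 and 1.40 for Lmo7. Htr1b was followed by the kainate receptor subunit Grik3 with r = 0.999, at 33.0, 52.2 and 53.8 CPM in the knockouts and 20.2, 28.3 and 27.5 CPM in the wild types. Next to Htr1b came Soga1 and Map3k20, each with 0.998. Htr1d was followed by Huwe1, Fa2h and Vcl, each with 0.997, and Htr3a by Dusp26 with 0.995 and Slc48a1 and Plagl1 with 0.994 each. These values describe only 6 libraries, which differ in depth and GC tilt and include the near-identical pair. Each r was picked as among the highest of 13404 genes, so nothing is read from its size.

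Transcript lengths, which had not entered the choice, could be compared for the members with several transcripts and at least 10 counts in every library. The mean length that RSEM gave Htr7 was 3010, 3009 and 3050 bases in the knockouts and 2980, 3005 and 3005 bases in the wild types. That of Htr1d was 2704, 2708 and 2789 bases in the knockouts and 2711, 2790 and 2788 bases in the wild types. The Htr1d groups overlapped. The Htr7 groups did not, but only narrowly, with knockout 5 at 3008.63 and wild type 3 at 3005.43 bases. Knockouts 5 and 6, counted as 1 sample, lay further apart than that for both genes, so the estimates are noisy. Neither difference passed (exact permutation test, two-sided, p = 0.2 for Htr7, the smallest the design allows, and 0.4 for Htr1d, both 0.4 after adjustment over the 2 genes).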

How the data were processed

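Total RNA with an RNA integrity number above 8.0 from lumbar dorsal root ganglia was made into stranded mRNA libraries, per the labels' protocols. Per the submitters' processing notes, the tools were Trimmomatic 0.38, STAR 2.6.0a and RSEM 1.3.0, and the build GRCm38. Which annotation release and strand setting they used is not given in the sources used here. In 1 table the authors deposited, per library, estimated counts (RSEM expected counts, not normalized), TPM values, FPKM values and mean transcript lengths. The deposited FPKM values were not used. Symbols and positions came from GENCODE vM21 and matched 35243 identifiers, and promoter sequences came from RefSeq on GRCm38.p6, which held 7 of the 8 members.

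Expected counts were rounded, filtered with filterByExpr, scaled by TMM and put through edgeR's quasi-likelihood test (version 4.0.16, R 4.3.3), two-sided. Genotype was the single term, with Benjamini-Hochberg adjustment over 16809 genes at 0.05. The counts of the members were whole within 1e-09. Standard errors are the absolute log2 fold change over the square root of the F statistic. Libraries knockout 5 and 6 were summed, or averaged for TPM and lengths. Alternatives used limma 3.58.1 and DESeq2 1.42.0. Members and lists were chosen with earlier results of these data known. Named genes are the members, the other receptors, up to 4 genes per serotonin list with the smallest p, the nearest protein-coding genes beside each member, and the 3 genes most like each member whose groups did not overlap. Ppbp, Gp6, Itga2b, Fev, Nppb, Nts, Tph1, Tph2, Tpsb2, Mcpt4, Cma1, Hdc and Kit were named after their values were seen.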

Additional observations from a re-analysis of the deposited data

How the results depend on the processing

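No paired analysis was possible because no number is shared between knockout and wild-type mice. The count of 16 genes past the threshold became 144 with 6 libraries counted separately, 81 with no filter, 255 with DESeq2, and, in alternatives chosen after seeing the data, 33 with GC correction and 477 with the class of GC tilt as a term. Leaving out replicates gave 7 to 16. The count of members called was 0, and 1 (Slc6a4) in each of those 5 settings and with limma on log2(TPM + 1), and it stayed at 0 to 0 with replicates left out. The cause was not tested, and nothing is read from the calls of members, since they were chosen on this contrast. The log2 fold change of Slc6a4 lay between 1.85, with limma on log2(TPM + 1), where the pseudocount shrinks low values by construction, and 3.97. Htr1f, at -0.07, turned to 0.0283 with GC correction and 0.0348 with the class of GC tilt as a term. With replicates left out it ran from -0.234 to 0.083, and it was 0.0704 without wild type 1 and 0.0027 without wild type 3. Htr3b ran from -0.159 to 0.0292 and Htr7 from -0.0611 to 0.345 in the same way. Htr1b ran from 0.41, without knockouts 5 and 6, to 1.03. Of 120 alternative values of the members 107 kept direction and side of the threshold, as did 251 of 255 of the 17 other serotonin genes named. The other 4 gained a call, Itgb3 in 3 settings and Rgs4 with the class of GC tilt as a term. Leaving out knockout 4, or knockouts 5 and 6, left 1 knockout sample, whose spread was taken from the wild types. Depth limits Slc6a4 in wild type (5 to 20 counts), Htr2b, Htr2c, Htr6 and Tph1.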
